A study of Mus musculus with 9 samples.

Results

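The Sox genes encode transcription factors that bind DNA through a high-mobility-group domain, and 10 of them were taken by symbol because they are known in neural progenitors and young neurons: Sox1, Sox2 and Sox3 (subgroup B1), Sox21 (subgroup B2), Sox4 and Sox11 (subgroup C), Sox5 and Sox6 (subgroup D), and Sox8 and Sox9 (subgroup E). Of these 10, 9 were found among the 34590 genes of the count files and all 9 passed the filter on low counts, which left 17182 genes for testing. Sox1 is not analysed here. Expression was measured by total RNA sequencing of dissociated telencephalon, the embryonic forebrain region that gives rise to cerebral cortex and basal ganglia, at E12.5. The groups were 5 wild-type (WT) embryos and 4 embryos lacking both Lats1 and Lats2 (dKO), all on a background labelled as mixed lineage. Deletion was driven by Nestin-Cre, which is active in neural progenitors and passes the recombined alleles to their progeny, so cells of other origin in the dissected tissue should keep both genes. The labels do not say whether WT embryos carried floxed alleles or Cre, or which embryos were littermates, so p-values measure the spread between these 9 embryos only. Lats1 and Lats2 encode the Hippo kinases that inactivate the coactivators YAP and TAZ, and the title of the series poses the question of a general rise in transcription when they are lost.

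SoxB1 factors bind together with POU-domain partners and hold neuroepithelial cells in a proliferating, undifferentiated state, while the SoxB2 factor Sox21 acts mainly as a repressor at related sites. SoxC factors are strong activators that are switched on as progenitors become neurons. SoxD proteins lack an activation domain of their own and modulate other Sox factors, with known roles in cortical and interneuron subtype choice, and SoxE factors act in radial glia and in the move towards glial fates.

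Sequence just upstream of the transcription start is shown for the SoxC pair, which both fell relative to all genes in dKO, for Sox2, the gene most ratios are set against, and for Sox5, the member with the lowest fold change. RefSeq promoter windows were matched for 7 of the 9 measured members, all but Sox3 and Sox9, on GRCm38.p6, which is not the mm9 build of the counts. Each line holds the 250 bases before the start site, 5′ to 3′ on the gene's strand, and capitals mark letters matching any of 7 motifs searched on both strands.
Sox4, chr13:28953700-28953949, minus strand: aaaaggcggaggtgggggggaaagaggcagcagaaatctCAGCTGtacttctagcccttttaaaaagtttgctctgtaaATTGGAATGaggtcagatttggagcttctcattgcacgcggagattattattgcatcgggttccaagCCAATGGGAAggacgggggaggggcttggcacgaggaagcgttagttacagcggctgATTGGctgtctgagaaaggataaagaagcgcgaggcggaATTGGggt
Sox11, chr12:27342719-27342968, minus strand: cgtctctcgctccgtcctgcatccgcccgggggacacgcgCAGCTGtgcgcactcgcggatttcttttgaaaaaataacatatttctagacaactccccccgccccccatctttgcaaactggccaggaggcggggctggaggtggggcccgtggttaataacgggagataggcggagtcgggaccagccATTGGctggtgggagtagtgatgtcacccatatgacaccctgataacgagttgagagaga
Sox2, chr3:34649745-34649994, plus strand: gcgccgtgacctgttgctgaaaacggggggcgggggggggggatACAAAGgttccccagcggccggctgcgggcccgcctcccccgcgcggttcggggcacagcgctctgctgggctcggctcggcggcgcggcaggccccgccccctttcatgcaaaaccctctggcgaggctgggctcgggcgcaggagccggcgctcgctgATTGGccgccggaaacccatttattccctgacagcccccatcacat
Sox5, chr6:143947107-143947356, minus strand: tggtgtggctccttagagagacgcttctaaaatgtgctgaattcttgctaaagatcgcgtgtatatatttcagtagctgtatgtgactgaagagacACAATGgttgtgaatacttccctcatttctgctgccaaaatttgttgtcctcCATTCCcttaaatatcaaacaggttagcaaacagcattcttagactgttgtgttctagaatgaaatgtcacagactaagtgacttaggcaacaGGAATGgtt
The motifs were GGAATG (bound by TEAD, the DNA-binding partners of YAP and TAZ), TGGGAA (Rbpj, the Notch effector), ACAANG (Sox factors), the CCAAT box, the TATA box TATAAA, the proneural E-box CAGNTG and the POU octamer ATGCNAAT. Among 32851 windows of the same length, they occurred in 12.6%, 21.6%, 36.3%, 33.8%, 12.4%, 44.8% and 2.86%, respectively. Both SoxC windows held an E-box, 211 bases before the start of Sox4 and 210 bases before that of Sox11, and a CCAAT box, of which Sox4 had 4 matches. In the Sox4 window the GGAATG match 168 bases before the start and the TGGGAA match 100 bases before it each overlapped a CCAAT match. The Sox5 window held GGAATG at 102 and 9 bases before the start and a Sox motif at 154 bases. The Sox2 window held a Sox motif at 206 bases and a CCAAT box at 46 bases. No motif of the 7 was matched in the windows of Sox21 (chr14:118237031-118237280) or Sox8 (chr17:25570687-25570936), and Sox6 had 6 windows, so it is not compared. These matches describe letters and carry no measurement of binding.

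Libraries held 12906561 to 45803152 gene counts. A fixed amount of synthetic spike-in RNA had been added per counted cell before extraction, so expression is given on 2 scales: counts per 10000 spike-in counts, which follows RNA per cell, and CPM, a count scaled to a common library size by the trimmed mean of M-values (TMM), which sets a gene against the typical gene of its library. Gene counts per spike-in count were 58.1 ± 6.10 (SD, n = 5) in WT and 79.1 ± 5.90 (SD, n = 4) in dKO, and the median of all genes tested was 0.43 higher in dKO on the log2 scale per spike-in count and -0.01 relative to all genes. Lats1 stood at 125 to 136 CPM in WT and 58.8 to 61.3 CPM in dKO (relative log2 fold change -1.15, SE 0.04, edgeR adjusted p = 3.12e-08), and Lats2 at 20.2 to 32.4 CPM and 36.3 to 56.4 CPM. Lats2 counts thus did not drop with its label and were higher in dKO. The relative log2 fold change was 0.69 (SE 0.18, edgeR adjusted p = 0.0144), and that per spike-in count was 1.12 (SE 0.16, edgeR adjusted p = 1.19e-06). The labels do not name the deleted exons. WT 2, WT 3 and WT 4 stood apart from the other 6 libraries by reads in no gene, 39.3% to 41.3% of all reads against 32.5% to 34.4% in WT 1 and WT 5 and 32.0% to 35.6% in dKO, so results that rest on them are given also for WT 1 and WT 5 against dKO. For Lats2 relative to all genes, that comparison gave 0.42 (edgeR adjusted p = 0.209). In whole tissue, fewer cells of a type and less RNA per cell cannot be told apart.

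The sampled tissue expressed Emx1, a transcription factor of the dorsal telencephalon, in every library, at 45.2 to 56.5 CPM in WT and 38.5 to 44.2 CPM in dKO. Of 10 telencephalic markers, 7 were lower and 0 higher in dKO relative to all genes (median log2 fold change -0.33), where 12% of all genes were lower and 13.7% higher, with a summed level of 672 to 785 CPM in WT and 514 to 554 CPM in dKO. Per spike-in count 2 of the 10 were lower and 1 higher (median 0.10), where 0.698% and 61.1% of all genes were. Their part in the Sox results was not tested.

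Compared per unit of exon length, Sox4 was the highest of the Sox genes in each of the 9 libraries, at 163 ± 13 CPM per kb in WT (SD, n = 5) and 137 ± 10.3 in dKO (SD, n = 4). Sox2 came next in each library, at 84.1 ± 8.03 and 88.1 ± 8.08 CPM per kb, followed by Sox11 at 58.2 ± 3.96 and 47.6 ± 4.67. The middle of the order was less settled. Sox6 and Sox5 lay within each other's spread in WT, at 23.2 ± 1.06 and 22.6 ± 5.56 CPM per kb. Their order differed between WT libraries. Sox5 was above Sox6 in WT 2, WT 3 and WT 4, the libraries with the highest share of reads in no gene. Sox6 was above Sox5 in WT 1 and WT 5. The order of WT 1 and WT 5 was also that of dKO. There every Sox6 value, 22.9 ± 3.50 on average, lay above every Sox5 value, 14.6 ± 2.50. Sox21, Sox9 and Sox3 kept that order in all 5 WT libraries, at 12.8 ± 1.27, 10.3 ± 0.877 and 8.60 ± 1.21 CPM per kb. In dKO their spreads overlapped, with Sox3 at 11.8 ± 1.84, Sox21 at 11.1 ± 1.16 and Sox9 at 9.26 ± 1.40 CPM per kb. Sox8 was the lowest in each library, at 5.03 ± 0.861 and 6.17 ± 1.17 CPM per kb. Exon lengths came from GENCODE vM21, another annotation than that of the counts.

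Per spike-in count, 4 of the 9 Sox genes rose in dKO, namely Sox2, Sox3, Sox6 and Sox8 (edgeR quasi-likelihood test, adjusted p under 0.05), against 61.1% of all genes tested. None fell, where 0.698% of all genes did: the count of falls was 0 at an unadjusted p under 0.05 and 0 with DESeq2 and limma-voom. The median log2 fold change over the 9 was 0.28, beside 0.43 over all genes tested. Groups did not overlap for 3 members, Sox2, Sox3 and Sox8, all higher in dKO, while 48.6% of all genes had no overlap. Relative to all genes, 1 member rose (Sox3, 13.7% of all genes rose) and 3 fell (Sox4, Sox11 and Sox5, 12% of all genes fell), with a median of -0.15 beside -0.01. On that scale the groups did not overlap for Sox11 alone, lower in dKO, against 22.3% of all genes in either direction. With WT 1 and WT 5 as the only WT libraries, 4 members again rose per spike-in count, the same 4 (49.1% of all genes rose), and 0 fell (0.250%), also 0 at an unadjusted p under 0.05. On the relative scale, 0 members then rose (2.51% of all genes) and 0 fell (0.949%), with 1 rise (Sox8) and 2 falls (Sox11 and Sox21) at an unadjusted p under 0.05.

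**Figure D1:**
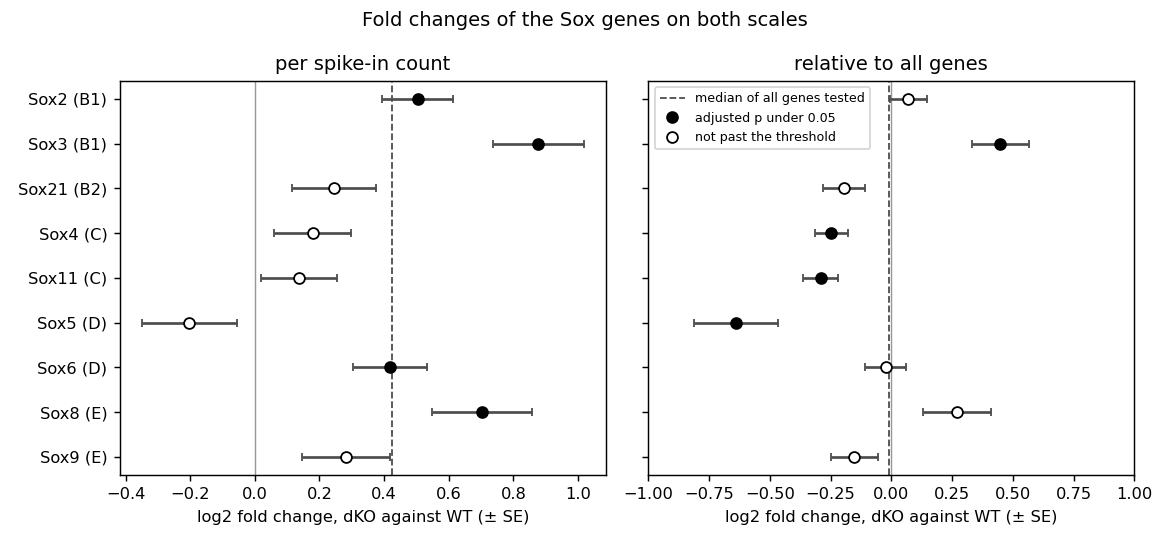
Log2 fold change of each Sox gene in dKO against WT (point) with its standard error (bar), per spike-in count on the left and relative to all genes on the right; filled points passed an adjusted p of 0.05 and the dashed line is the median of all genes tested. Sox3 lies above that median on both sides, at 0.88 and 0.45, and Sox5, Sox11 and Sox4 lie below it on both.

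In subgroup B1, both measured progenitor factors rose per spike-in count. Sox2, which maintains neural stem cells, gave 104, 80.5, 104, 96.4 and 118 counts per 10000 spike-in counts in WT 1 to 5. It gave 135, 167, 136 and 134 in dKO 1 to 4. Every dKO library was above every WT library, and dKO 2 stood above the other dKO libraries. The increase was 1.42-fold (log2 fold change 0.50, SE 0.11, adjusted p = 0.000276), near the median of all genes, with 64.3% of genes tested having a smaller value. Relative to all genes, Sox2 was at 192, 162, 163, 158 and 189.6 CPM in WT and 192, 198, 173 and 162 CPM in dKO. WT 1 and WT 5 lay with the higher dKO libraries and WT 2 to 4 with the lowest, so the groups overlapped, and the log2 fold change on this scale, 0.07 (SE 0.08, adjusted p = 0.539), turned to -0.07 (adjusted p = 0.679) against WT 1 and WT 5. Sox2 lies within the locus of the long non-coding RNA Sox2ot, and with the strand setting of the counting not given, reads of the pair cannot be fully told apart. Sox2ot itself stood at 103 ± 8.54 CPM (SD, n = 5) in WT and 96.5 ± 5.94 CPM (SD, n = 4) in dKO, a relative log2 difference of -0.09 (adjusted p = 0.316). Per spike-in count Sox2ot rose as Sox2 did (log2 fold change 0.34, SE 0.11, adjusted p = 0.00765), and so did 61.1% of all genes. Against WT 1 and WT 5 that rise was 0.46 (adjusted p = 0.00573).

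Sox3, an X-linked gene that acts with Sox2 in the neuroepithelium, had the highest log2 fold change of the 9 on both scales. It gave 9.19, 8.12, 11.2, 9.67 and 13.8 counts per 10000 spike-in counts in WT 1 to 5 and 18.4, 18.1, 16.5 and 23.7 in dKO 1 to 4. All dKO libraries were above all WT libraries. The increase was 1.84-fold (log2 fold change 0.88, SE 0.14, adjusted p = 6.49e-06), larger than that of 93.1% of genes tested. As a share of its library it stood at 16.97, 16.3, 17.6, 15.8 and 22.1 CPM in WT and 26.4, 21.5, 20.997 and 28.8 CPM in dKO. WT 5 reached into the dKO range and dKO 3 and dKO 2 lay just below it. The relative rise was 1.36-fold (log2 fold change 0.45, SE 0.12, adjusted p = 0.0166). It missed the threshold without dKO 1 (0.40, adjusted p = 0.0554) and against WT 1 and WT 5 (0.30, adjusted p = 0.322), while the rise per spike-in count held there (0.72, adjusted p = 0.00152).

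Sox21, the SoxB2 repressor, did not pass the test on either scale. Its level was 54.2, 45.2, 47.2, 43.1 and 52.9 CPM in WT 1 to 5 and 41.0, 48.8, 39.0 and 40.6 CPM in dKO 1 to 4. Of the dKO libraries, dKO 2 alone lay within the WT range. WT 1 and WT 5, at 52.9 to 54.2 CPM, stood above WT 2 to 4, at 43.1 to 47.2 CPM. Relative to all genes its log2 fold change was -0.19 (SE 0.09, adjusted p = 0.117), and without dKO 2 it was -0.26 (adjusted p = 0.0417). Against WT 1 and WT 5 it was -0.34 (adjusted p = 0.0968). Per spike-in count it was 28.2 ± 4.00 (SD, n = 5) in WT and 33.5 ± 5.46 (SD, n = 4) in dKO per 10000, a log2 difference of 0.24 (SE 0.13, adjusted p = 0.102), which passed without WT 5 (0.31, adjusted p = 0.0453) or without dKO 1 (0.31, adjusted p = 0.0414).

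**Figure D2:**
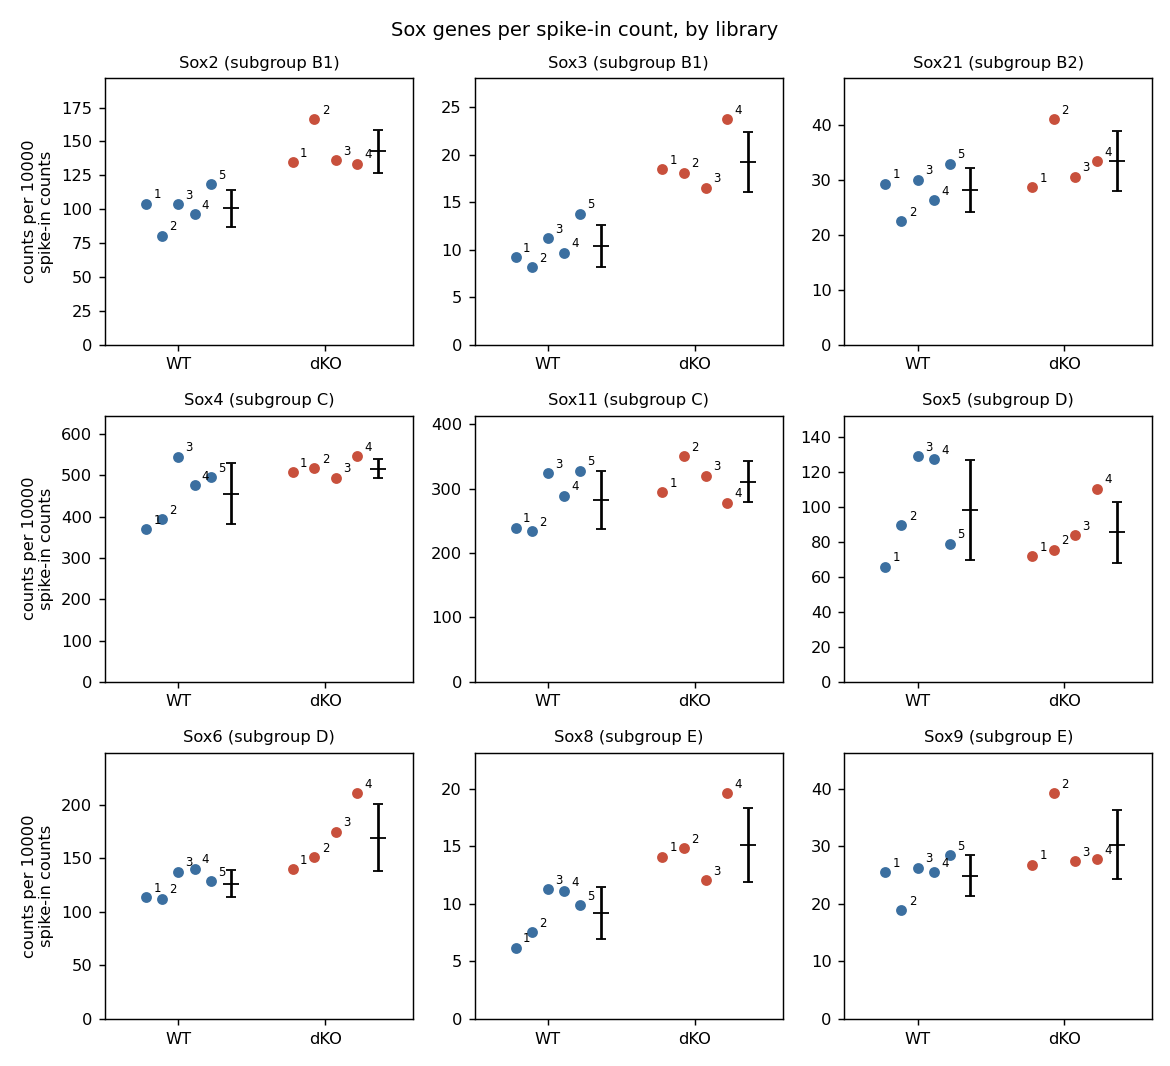
Counts of each Sox gene per 10000 spike-in counts (vertical axis) in the 5 WT and 4 dKO libraries, points with replicate numbers, with mean and SD beside each group. For Sox2, Sox3 and Sox8 every dKO point is above every WT point.

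Both SoxC genes, which activate the neuronal program in newborn neurons, fell relative to all genes by similar amounts. Sox11 stood at 442, 470.0, 508, 474 and 525 CPM in WT 1 to 5. It stood at 421, 416, 407 and 338 CPM in dKO 1 to 4. Every dKO library was below every WT library, and dKO 4 was the lowest by a wide gap. The fall was to 0.817-fold (log2 fold change -0.29, SE 0.07, adjusted p = 0.0118), and it passed the threshold without any single library (adjusted p 0.00783 to 0.0324). Against WT 1 and WT 5 the log2 fold change was still -0.29, with an adjusted p of 0.156.

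Sox4 stood at 683, 791, 856, 782 and 793 CPM in WT 1 to 5 and at 725, 614, 629 and 663 CPM in dKO 1 to 4. WT 1 and dKO 1 were the libraries that overlapped. The fall was to 0.843-fold (log2 fold change -0.25, SE 0.07, adjusted p = 0.0218). It missed the threshold without WT 3 (-0.21, adjusted p = 0.0550), without dKO 2 (-0.21, adjusted p = 0.0637), without dKO 3 (-0.22, adjusted p = 0.0566) and against WT 1 and WT 5 (-0.17, adjusted p = 0.324).

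Per spike-in count, neither SoxC gene passed the test. Sox4 gave 369.6, 393, 545, 477 and 495 counts per 10000 spike-in counts in WT and 507, 518, 495 and 547 in dKO, a log2 difference of 0.18 (SE 0.12, adjusted p = 0.186). Sox11 gave 239, 234, 324, 289 and 328 in WT and 294, 350.4, 320.2 and 278 in dKO, a log2 difference of 0.14 (SE 0.12, adjusted p = 0.313). WT 3 and WT 5 lay within the dKO range of both genes and WT 4 within that of Sox11 only, while WT 1 and WT 2 were the lowest. On this scale 18.3% of genes tested had a smaller fold change than Sox4 and 15.3% than Sox11.

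**Figure D3:**
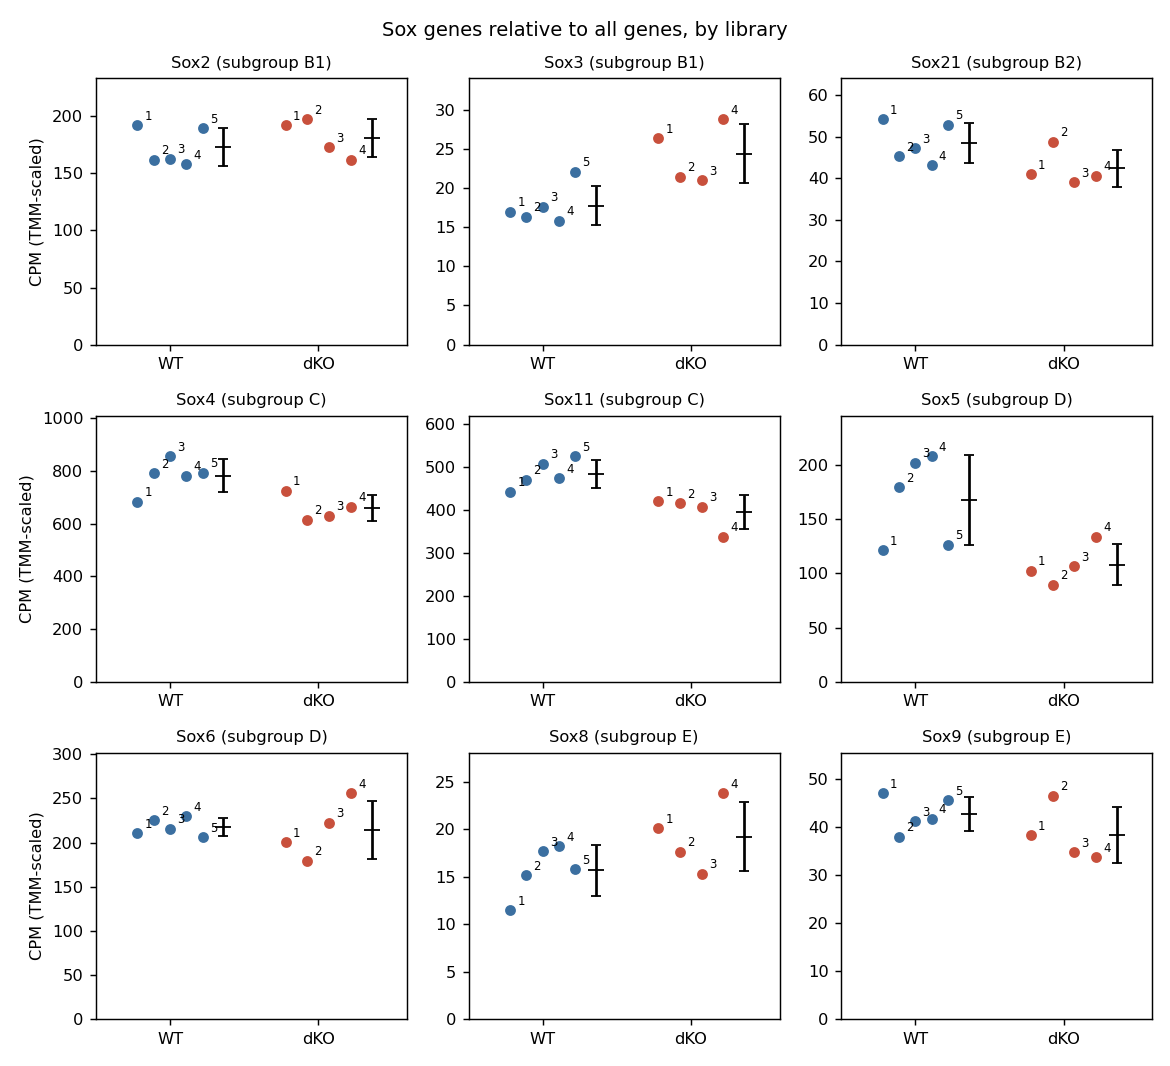
TMM-scaled CPM of each Sox gene (vertical axis) in the 5 WT and 4 dKO libraries, points with replicate numbers, with mean and SD beside each group. Only for Sox11 do the groups not overlap, and WT 2, 3 and 4 stand well above all other libraries for Sox5.

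The SoxD genes differed from each other. Sox5, which in the cortex acts in deep-layer projection neurons, stood at 121, 179.6, 202, 208 and 126.3 CPM in WT 1 to 5 and at 102, 89.6, 107 and 134 CPM in dKO 1 to 4. WT 2, 3 and 4 were far above the rest, while WT 1 and WT 5, at 121 to 126.3 CPM, lay inside the dKO range of 89.6 to 134 CPM. Over all libraries Sox5 fell to 0.642-fold relative to all genes (log2 fold change -0.64, SE 0.17, adjusted p = 0.0185), the lowest value of the 9. Without dKO 1 the fall missed the threshold (-0.61, adjusted p = 0.0556), and against WT 1 and WT 5 the log2 fold change was -0.20 (adjusted p = 0.425). The Sox5 level thus set WT 2, 3 and 4, the libraries with the highest share of reads in no gene, apart from all others. The part of that share in the result was not tested.

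Per spike-in count Sox5 gave 65.7, 89.3, 129, 127 and 78.8 counts per 10000 in WT and 71.7, 75.5, 83.8 and 110.2 in dKO. The groups overlapped throughout, with a log2 difference of -0.20 (SE 0.15, adjusted p = 0.228). This value passed as a fall without WT 1 (-0.31, adjusted p = 0.0266) or without dKO 4 (-0.35, adjusted p = 0.0169), and turned to 0.23 (adjusted p = 0.162) against WT 1 and WT 5.

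Sox6, known in interneuron precursors and progenitors, gave 114, 112, 137, 140.2 and 129 counts per 10000 spike-in counts in WT 1 to 5 and 140.0, 151, 175 and 211 in dKO 1 to 4. Only WT 4 and dKO 1 met, at nearly the same value, and dKO 4 was the highest. The rise was 1.34-fold (log2 fold change 0.42, SE 0.11, adjusted p = 0.00221), close to the median of all genes. On the relative scale Sox6 stood at 206 to 229.8 CPM in WT and 179 to 256 CPM in dKO, so the dKO libraries enclosed the WT range (log2 fold change -0.02, SE 0.08, adjusted p = 0.877).

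**Figure D4:**
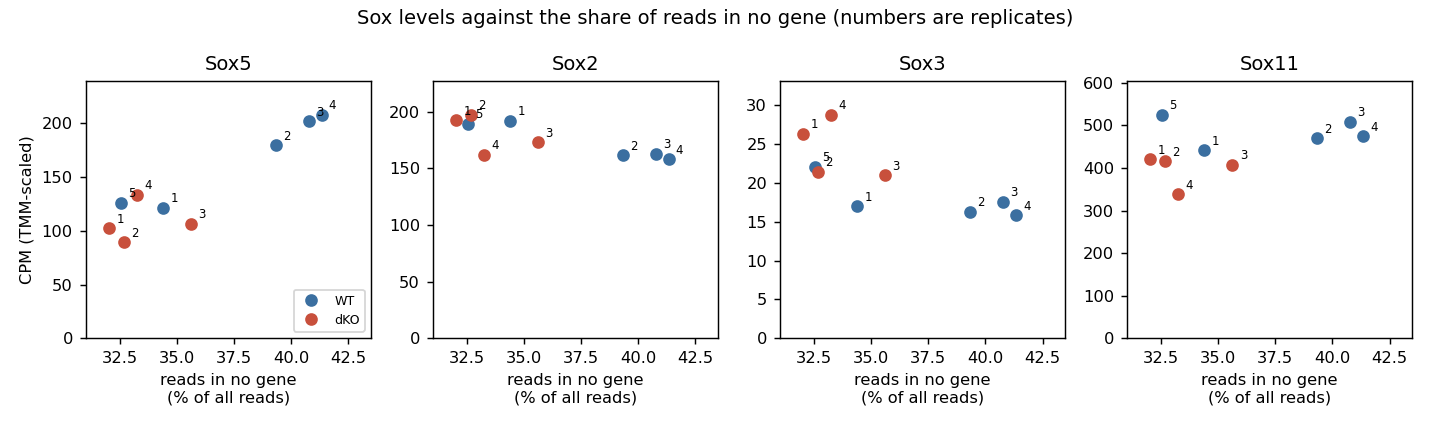
TMM-scaled CPM of Sox5, Sox2, Sox3 and Sox11 (vertical axes) against the percentage of all reads that lay in no gene (horizontal axes), 1 numbered point per library. Sox5 is at 179.6 to 208 CPM in the 3 WT libraries with 39.3% or more of such reads and at 89.6 to 134 CPM in the other 6 libraries.

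Of the SoxE genes, Sox8 rose per spike-in count and Sox9 did not pass the test. Sox8, which overlaps with Sox9 in function in the glial lineage, gave 6.21, 7.53, 11.3, 11.1 and 9.86 counts per 10000 spike-in counts in WT 1 to 5 and 14.1, 14.9, 12.05 and 19.6 in dKO 1 to 4. All dKO libraries were above all WT libraries. The rise was 1.63-fold (log2 fold change 0.70, SE 0.15, adjusted p = 0.000279). Sox8 was the least covered member, with 150 counts in WT 1 and 390 to 908 in dKO. Its relative level was 11.5 to 18.2 CPM in WT and 15.3 to 23.8 CPM in dKO, a log2 difference of 0.27 (SE 0.14, adjusted p = 0.184).

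Sox9, a factor of radial glia that primes gliogenesis, gave 25.5, 18.9, 26.2, 25.5 and 28.5 counts per 10000 spike-in counts in WT 1 to 5 and 26.8, 39.2, 27.4 and 27.8 in dKO 1 to 4. dKO 2 stood far above the others and the remaining dKO libraries lay inside the WT range. The log2 difference was 0.28 (SE 0.14, adjusted p = 0.0709). It passed without WT 5 (0.33, adjusted p = 0.0389), dKO 1 (0.34, adjusted p = 0.0343) or dKO 3 (0.33, adjusted p = 0.0496). In CPM, Sox9 stood at 47.0, 38.0, 41.2, 41.8 and 45.6 CPM in WT and 38.2, 46.5, 34.8 and 33.7 CPM in dKO, a log2 difference of -0.15 (SE 0.10, adjusted p = 0.274), which passed without dKO 2 (-0.25, adjusted p = 0.0468). WT 1 and WT 5, at 45.6 to 47.0 CPM, stood above WT 2 to 4, at 38.0 to 41.8 CPM. Against WT 1 and WT 5 the relative log2 fold change of Sox9 was -0.27 (adjusted p = 0.274).

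Ratios between Sox genes within a library depend on neither scale. Of 9 pairs planned, 7 could be computed, and 5 of these 7 differed between the groups (exact permutation of the group labels, two-sided, with p-values Benjamini-Hochberg adjusted over the 7 pairs). Ratios are of counts and not of levels per length. Set against Sox2, Sox3 was higher and Sox21, Sox9 and Sox11 were lower in dKO. These ratios share Sox2 as denominator, so they are not independent results. No share over other pairs of genes is given here, so the count of pairs cannot be called particular to Sox genes. The Sox21 to Sox2 ratio was 0.282, 0.279, 0.290, 0.273 and 0.279 in WT 1 to 5 and 0.213, 0.247, 0.225 and 0.251 in dKO 1 to 4. WT libraries lay in a narrow range and all dKO libraries below it. The log2 difference was -0.27 (SE 0.06, exact permutation p = 0.00794, the smallest the design allows, adjusted p = 0.0417), and it was -0.26 against WT 1 and WT 5 alone.

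The Sox9 to Sox2 ratio was 0.245, 0.235, 0.253, 0.264 and 0.241 in WT and 0.199, 0.235, 0.201 and 0.208 in dKO. WT 2 and dKO 2 had nearly equal ratios and the other dKO libraries were below all WT libraries (log2 difference -0.23, SE 0.06, exact permutation p = 0.0159, adjusted p = 0.0417). Against WT 1 and WT 5 the difference was -0.21.

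The Sox11 to Sox2 ratio, a neuronal against a progenitor factor, was 2.30, 2.90, 3.12, 3.00 and 2.77 in WT and 2.19, 2.10, 2.35 and 2.08 in dKO. WT 1 alone reached down into the dKO range (log2 difference -0.36, SE 0.09, exact permutation p = 0.0238, adjusted p = 0.0417). Against WT 1 and WT 5 the difference was -0.21.

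The Sox3 to Sox2 ratio was 0.0885, 0.101, 0.108, 0.1004 and 0.117 in WT and 0.137, 0.109, 0.121 and 0.178 in dKO. dKO 2 lay inside the WT range and dKO 4 was the highest (log2 difference 0.39, SE 0.17, exact permutation p = 0.0317, adjusted p = 0.0444). It was 0.40 against WT 1 and WT 5.

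The Sox5 to Sox6 ratio was 0.577, 0.796, 0.938, 0.905 and 0.612 in WT and 0.512, 0.4997, 0.479 and 0.523 in dKO. All dKO libraries were below all WT libraries, and WT 1 and WT 5 were the WT libraries closest to them (log2 difference -0.58, SE 0.15, exact permutation p = 0.0238, adjusted p = 0.0417). This difference shrank to -0.24 against WT 1 and WT 5. With 2 against 4 libraries no exact p below 0.0667 is possible, so these restricted differences carry no test.

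The remaining pairs did not pass. The Sox4 to Sox11 ratio ranged from 1.51 to 1.68 in WT and from 1.48 to 1.96 in dKO (log2 difference 0.05, SE 0.10, exact permutation p = 0.643, adjusted p = 0.643). The Sox8 to Sox9 ratio ranged from 0.245 to 0.437 in WT and from 0.379 to 0.707 in dKO (log2 difference 0.46, SE 0.25, exact permutation p = 0.111, adjusted p = 0.130). With any 1 library left out, no more than 3 of the 7 pairs kept an adjusted p under 0.05, and 0 did so in most cases, where the smallest possible p rises to 0.0286 (4 against 4) or 0.0179 (5 against 3). The signs of the differences held in each of those cases for all pairs but Sox4 to Sox11.

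**Figure D5:**
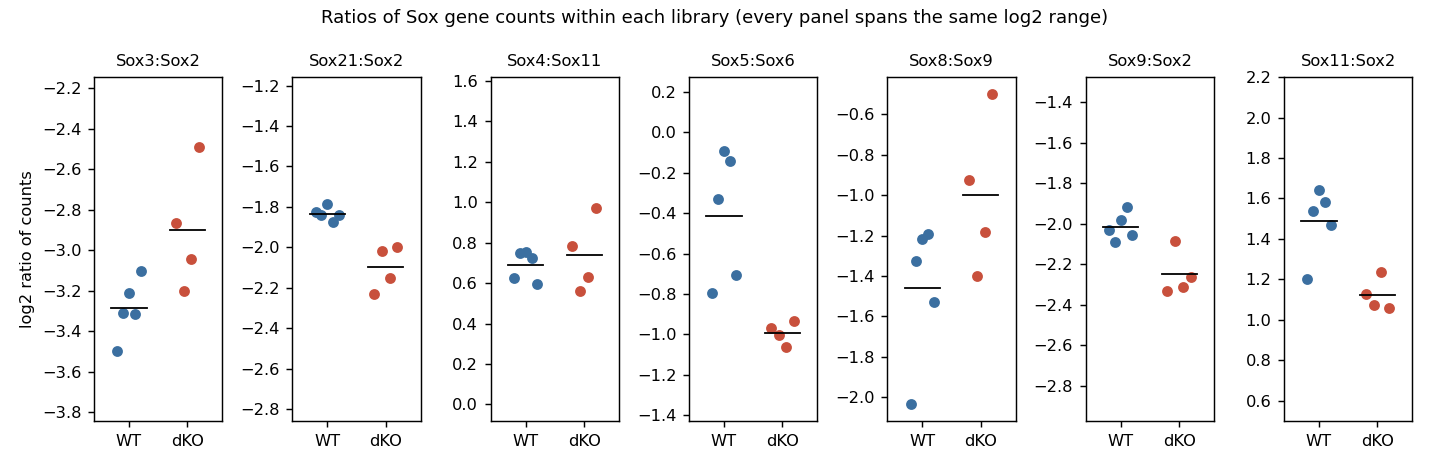
Log2 ratio of the counts of 2 Sox genes within each library (vertical axis, the same span in every panel) for 7 pairs, with points for the 5 WT and 4 dKO libraries and a line at each group mean. The groups are separate for Sox21 to Sox2 and for Sox5 to Sox6.

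Of the other Sox genes, 7 of 9 were tested. Of these, 2 fell relative to all genes (12% of all genes fell) and 0 rose (13.7%), with 0 rises also at an unadjusted p under 0.05 and with DESeq2 and limma-voom, and the median log2 fold change was -0.29. The falls were Sox12, the remaining SoxC gene (60.3 ± 3.34 CPM in WT and 53.8 ± 2.77 CPM in dKO, SD, log2 fold change -0.17, adjusted p = 0.0400), and Sox13, the remaining SoxD gene (20.5 ± 0.927 and 13.4 ± 2.47 CPM, -0.62, adjusted p = 0.00206). Per spike-in count Sox12 rose (0.27, adjusted p = 0.0475), as 61.1% of all genes did, and was the 1 gene of the 7 to do so. Both Sox12 calls were lost when any of several libraries was left out (relative without WT 2, 4 or 5 or dKO 1, 3 or 4, with adjusted p 0.0652 to 0.114, and per spike-in count without WT 1 to 4 or dKO 2 to 4, with adjusted p 0.0543 to 0.205). The relative fall was lost also without a filter on low counts (adjusted p = 0.0646) and with the replicate block (-0.13, adjusted p = 0.103), and the rise with limma-voom (adjusted p = 0.0550), without a filter (adjusted p = 0.0586) and with TMM over spike-ins (adjusted p = 0.0803). Against WT 1 and WT 5, Sox12 was at -0.22 (adjusted p = 0.151) and Sox13 at -0.66 (adjusted p = 0.0617) relative to all genes. On that scale 0 of the 7 then passed in either direction, where 2.51% of all genes rose and 0.949% fell. Sox10, which marks neural crest and oligodendrocyte precursors, was near the floor at 0.907 ± 0.508 CPM in WT and 0.513 ± 0.205 CPM in dKO, and the endothelial genes Sox7, Sox17 and Sox18 stood at 1.73 to 4.33 CPM over all libraries.

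Of 12 genes of SoxB1 partners and progenitors, 7 rose and 1 fell per spike-in count (median log2 fold change 0.37), where 61.1% of all genes rose and 0.698% fell, so the share of rises was near that of all genes. Relative to all genes 1 rose and 4 fell (median -0.07), where 13.7% and 12% of all genes did. Nes, the intermediate filament whose neural enhancer is bound by Sox2 with POU factors, was the gene that rose relative to all genes, from 784 ± 58.5 CPM in WT to 1178 ± 73.6 CPM in dKO (log2 fold change 0.59, adjusted p = 0.000172). Among the 4 that fell were Hes5, a Notch effector (60.6 ± 10.9 to 29.3 ± 12.7 CPM, -1.03, adjusted p = 0.00964), Fabp7, a radial glial lipid-binding protein (-0.23, adjusted p = 0.00466), and the POU factor Pou3f1 (-0.38, adjusted p = 0.0135). Hes5 was also the gene that fell per spike-in count (-0.59, adjusted p = 0.00755), a call lost with DESeq2 (-0.59, adjusted p = 0.112). With WT 1 and WT 5 as the WT libraries, 7 again rose and 1 fell per spike-in count, where 49.1% and 0.250% of all genes did. Relative to all genes 1 then rose (Nes, 0.49, adjusted p = 0.0179) and 0 fell, where 2.51% and 0.949% of all genes did.

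The list linked to SoxC held, besides neuronal genes, Tead2, which encodes a TEAD factor. Of its 7 tested genes, 3 fell and 0 rose relative to all genes (median -0.28, with 0 rises at an unadjusted p under 0.05), where 12% of all genes fell and 13.7% rose. Per spike-in count 2 rose (Stmn2 and Tead2) and 0 fell (median 0.15), where 61.1% of all genes rose and 0.698% fell, and 1 fell without dKO 4. Tead2 had a log2 fold change of 0.54 (adjusted p = 0.000148) on that scale and 0.10 (adjusted p = 0.255) relative to all genes. Map2 is not analysed here. The falls were the microtubule regulator Dcx (672 ± 60.8 CPM in WT and 481 ± 25.3 CPM in dKO, log2 fold change -0.48, adjusted p = 0.000709), the neuronal tubulin Tubb3 (-0.28, adjusted p = 0.00335) and the RNA-binding protein Elavl3 (-0.30, adjusted p = 0.00132). Stmn2 had a relative log2 fold change of -0.17 (adjusted p = 0.0654) and rose per spike-in count (0.26, adjusted p = 0.0371). That rise was lost without WT 1, WT 2, dKO 3 or dKO 4 (adjusted p 0.0720 to 0.134), with TMM over spike-ins (adjusted p = 0.0674) and against WT 1 and WT 5 (adjusted p = 0.0722). A relative fall of Stmn2 passed without WT 1 (-0.21, adjusted p = 0.0140) or dKO 1 (-0.21, adjusted p = 0.0493), and also with DESeq2, a mean count of at least 50, upper quartile scaling or total gene counts (adjusted p 0.0418 to 0.0452). In the restricted comparison with WT 1 and WT 5, 1 gene fell relative to all genes (Dcx, -0.36, adjusted p = 0.0404), where 0.949% of all genes fell. Per spike-in count 1 then rose, where 49.1% of all genes did.

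Of 9 glial competence genes linked to SoxE and SoxD factors, 5 rose and 0 fell per spike-in count (median 0.51), where 61.1% of all genes rose and 0.698% fell, so the share of rises was near that of all genes. A fall passed there without WT 5, dKO 2 or dKO 3 (Apcdd1, -0.33 to -0.29, adjusted p 0.0440 to 0.0472) and without WT 1 or dKO 4 (Mmd2, -0.38 and -0.44, adjusted p = 0.0219 and 0.00993). Relative to all genes 1 rose and 3 fell (median 0.07), where 13.7% and 12% of all genes did. The relative rise was Hes1, a Notch effector (32.2 ± 3.27 CPM in WT and 58.0 ± 7.41 CPM in dKO, log2 fold change 0.85, adjusted p = 0.000165). The falls were Apcdd1 (-0.69, adjusted p = 0.000726) and Mmd2 (-0.71, adjusted p = 0.00748), both known as genes induced with Sox9 and Nfia, and Nfia itself (-0.40, adjusted p = 0.0406). The Nfia fall was lost without WT 2, 3 or 4 or dKO 1, 2 or 3 (adjusted p 0.0800 to 0.101). When WT 2 to 4 were left out, 1 gene rose (Hes1, 0.74, adjusted p = 0.0211) and 1 fell (Apcdd1, -0.60, adjusted p = 0.0497) relative to all genes, and 7 rose per spike-in count. Of all genes, 2.51% then rose and 0.949% fell on the relative scale, and 49.1% rose per spike-in count. The lists name genes known to act with Sox factors and say nothing of what controls them here.

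Markers of other cells that use SoxE or SoxD factors were present. Oligodendrocyte precursor markers summed to 67.1 to 83.7 CPM in WT and 49.2 to 92.0 CPM in dKO, with 0 of 5 past the threshold relative to all genes. Neural crest and melanocyte markers summed to 24.6 to 33.7 CPM in WT and 24.5 to 27.0 CPM in dKO, with 1 of 6 tested higher and 1 lower. The higher one, Erbb3, was low at 1.16 ± 0.379 CPM in WT and 2.10 ± 0.716 CPM in dKO. The lower one, Dct, was at 13.2 ± 3.05 and 5.89 ± 1.40 CPM. Cartilage and mesenchyme markers summed to 138 to 168 CPM in WT and 97.2 to 166 CPM in dKO, with 1 of 5 tested higher. This gene, Acan, was near the floor at 0.224 ± 0.0534 CPM in WT and 0.603 ± 0.0633 CPM in dKO, with 108 counts in total. On this scale 13.7% of all genes rose and 12% fell. No measured marker was at 0 in all libraries, but the cartilage marker Matn1 had 2 counts in total and the neural crest marker Foxd3 had 26. The cartilage sum was mostly Col2a1, at 112 ± 10.8 CPM in WT and 92.8 ± 20.3 CPM in dKO. The part of these cells in the Sox results was not tested.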

How the data were processed

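Each library came as a deposited table of counts, whole numbers of reads for each gene symbol and not normalized. Per the submitters' processing notes, the authors used STAR and HTSeq on the mm9 build to make these counts. Their versions, annotation and strand setting: not given in the sources used here. Per the labels' protocols, a constant volume of ERCC spike-in mix per counted cell went into the pellets before RNA was purified. The spike-ins and the counter's summary lines, among them reads in no gene and reads aligned to several places, were kept out of gene totals, so near-identical sequences may be undercounted.

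Genes passing filterByExpr were tested in R 4.3.3 with the quasi-likelihood test of edgeR 4.0.16 and Benjamini-Hochberg adjustment over all 17182 genes, threshold 0.05. The fit per spike-in count used spike-in totals as library sizes, so all genes share these 9 totals, and the relative fit used TMM. Each standard error is the absolute log2 fold change over the square root of F. Ratios used a pseudocount of 0.5. Scripts were tested on simulated data. Alternatives were DESeq2 1.42.0, limma 3.58.1 (voom), other filters, scalings and spike-in subsets, each library left out, WT 1 and WT 5 alone, and a replicate block. Precision is limited by 5 and 4 embryos and, for Sox8, by depth.

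The members, the lists and the restriction to WT 1 and WT 5 were chosen with earlier results of these data known. Named were Lats1, Lats2, every member, overlapping transcripts and, of each context list, the genes past the threshold in either fit, or the 4 with the smallest relative adjusted p where more than 4 passed. Sox7, Sox10, Sox17, Sox18, Emx1, Erbb3, Dct, Foxd3, Acan, Matn1 and Col2a1 were named as cell type markers, and Tead2 as a gene of the SoxC list that encodes a TEAD factor.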

Additional observations from a re-analysis of the deposited data

Results flagged for a closer look

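In 50 sets of values (each Sox gene on both scales and each ratio, within WT and within dKO), 4 held a library whose gap to the nearest other library exceeded Dixon's 95% limit for its group size. Chance alone gives about 1 in 20. Sox2 in dKO 2 was at 166.6 counts per 10000 spike-in counts, against 134 to 136 in the other dKO libraries. Sox9 in the same library was at 39.2, against 26.8 to 27.8. Sox3 in WT 5 was at 22.1 CPM, against 15.8 to 17.6 CPM in the other WT libraries. Sox11 in dKO 4 was at 338 CPM, against 407 to 421 CPM in the other dKO libraries.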

How the results depend on the processing

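The direction held under every alternative for Sox3, Sox4, Sox8, Sox9, Sox11 and Sox21 on both scales, and the rises of Sox2, Sox3, Sox6 and Sox8 per spike-in count passed the threshold under each alternative run. With 1 library left out, members rising per spike-in count numbered 4 to 6 and falling 0 to 1, and relative to all genes 0 to 1 rose and 2 to 4 fell. Over all genes, rises per spike-in count then numbered 8879 (without dKO 2) to 11454 (without dKO 1), beside 10495 with all libraries. Relative rises over all genes numbered 1782 (without WT 3) to 2456 (without WT 1). Pairs past the threshold numbered 0 to 3. Against WT 1 and WT 5 alone, 0 members rose and 0 fell relative to all genes. Over all genes, falls per spike-in count were 120, but 79 with DESeq2, 187 without a filter, 43 against WT 1 and WT 5, and 67 to 203 with 1 library left out. Relative rises and falls over all genes, 2355 and 2067, became 432 and 163 against WT 1 and WT 5, and relative falls were 1369 (without WT 4) to 2275 with 1 library left out. Lats2 relative to all genes was then 0.42 (adjusted p = 0.209) against WT 1 and WT 5. The causes were not tested.

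Small differences changed sign. Relative to all genes, Sox6 ranged from -0.12 to 0.059 with 1 library left out, being 0.0058 without WT 4, 0.0094 without dKO 1, 0.059 without dKO 2 and 0.039 against WT 1 and WT 5, where Sox2 was -0.073 and Sox2ot 0.031. Per spike-in count, Sox5 was 0.23, Dcx 0.061 and Mmd2 0.027 against WT 1 and WT 5, and Dcx 0.014 without WT 3. Pou3f1 was -0.015 without WT 1 and -0.021 without dKO 2, and up to 0.11 with other libraries left out. Nfia was -0.065 without WT 1, -5.7e-05 without WT 2, -0.0064 without WT 5 and -0.072 without dKO 4, up to 0.13 with another library left out, and 0.35 (adjusted p = 0.0360) against WT 1 and WT 5. The log2 difference of the Sox4 to Sox11 ratio was -0.031 without dKO 4, up to 0.11 with another library left out, and 0.13 against WT 1 and WT 5.

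Replicates 1 to 4 share numbers across groups. Correlations of same-numbered deviations were -0.16, -0.13, -0.29 and 0.16, and 0 of 4 dKO libraries were closest to their own number, so no pairing by number was seen. Shared litters are not excluded by this, since the WT deviations also hold the difference between WT 2 to 4 and the other WT libraries. With a replicate block, 4 members rose and 0 fell per spike-in count (10476 and 145 of all genes), and 1 rose and 2 fell relative to all genes (1864 and 1598), Sox4 being at -0.24 (adjusted p = 0.0988). Outside the members, the Sox12 fall was lost too (-0.13, adjusted p = 0.103).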
